A study of Mus musculus with 4 samples.

Results

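DNA replication and S-phase genes were described in subcutaneous mouse tumors with and without knockdown of Taz. The set held 40 genes, chosen by symbol from the 15424 genes of the deposited expression table, and all 40 had a row. R728T1 cells had been placed under the skin of nude mice, a strain without mature T cells. Per the labels the line consists of non-SMCs, a term left undefined, and comes from a mouse model of Rb and P53, and small cell lung cancer is the stated cell type. The 2 groups were shTaz, with an shRNA against Taz, and shLuc, the control with an shRNA against luciferase (spelled shLuciferace in the sample titles). The labels list 2 samples per group, 4 in all. They do not give the age or sex of the mice, the number of clones, whether tumors were pooled, or the sequence of either shRNA.

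The authors deposited 1 column of FPKM per group (fragments scaled to transcript length and sequencing total). Each value below is therefore the authors' value for a whole group. With no replicate values at hand, no spread was known and no difference could be tested. A difference here is log2((shTaz FPKM + 1) / (shLuc FPKM + 1)), so that a positive value means higher in shTaz. Genes entered where the mean of the 2 columns reached 1 FPKM, which held for 11650 genes, among them 39 of the 40 replication genes. The sequencing depth behind the values is unknown. Wwtr1, which encodes TAZ, was at 15.1 FPKM in shTaz and 23.4 FPKM in shLuc, which is 64.5% of shLuc. The symbol Taz in the table denotes tafazzin, a cardiolipin-remodelling enzyme, at 9.50 FPKM in shTaz and 13.7 FPKM in shLuc. In bulk tumors, fewer cells of a type and less RNA per cell cannot be told apart.

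Chromosomal replication starts when the origin recognition complex, CDC6 and CDT1 load the ring of MCM proteins onto DNA in G1 phase. In S phase CDC45 and the GINS complex join the ring to form the active helicase, primase and the polymerases copy the strands, and the clamp PCNA, loaded by replication factor C, holds the polymerases on DNA. The E2F transcription factors E2F1, E2F2 and E2F3, which the retinoblastoma protein restrains, drive many of these genes at the transition from G1 to S phase, and such genes are widely read as a sign of proliferation in tumors.

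Promoter sequence was examined first, because E2F control is the feature these genes are best known to share. RefSeq promoters (GRCm38.p6, the build called mm10) run from 250 bases before to 50 bases after the annotated start, and 34 of the 40 genes had one. E2F-type motifs were searched as 4 spellings, TTTCGCGC, TTTGGCGC, TTTCCCGC and TTTGCCGC, on both strands. Matches may overlap. At least 1 match was found in 16 of the 34 genes, or 47.1%. Among all 27025 genes with a promoter the share was 2.60%, and among the 8307 of them past the expression filter it was 4.77%. A match is a string of letters and not a measured binding site, and a promoter without one was not examined further.

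The windows below show matches in MCM and E2F genes, and in Hells and Pola1, which led their roles by difference. Each is 30 bases read 5′ to 3′ on the strand of the gene, with the matched letters in capitals.
Mcm3: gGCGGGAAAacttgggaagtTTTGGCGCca
Mcm5: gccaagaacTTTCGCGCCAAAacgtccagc
Mcm6 upstream window: gcgtatgctTTTGGCGCGAAAagtgcgtgc
Mcm6 downstream window: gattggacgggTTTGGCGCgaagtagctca
Mcm7 upstream window: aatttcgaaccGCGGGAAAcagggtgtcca
Mcm7 downstream window: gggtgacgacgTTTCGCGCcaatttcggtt
E2f2: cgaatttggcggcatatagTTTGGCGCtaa
E2f3: aatatggtttgaaaagccgGCGGGAAAtct
Hells: gaccaccgggtTTTCCCGCgaaagagaagc
Pola1: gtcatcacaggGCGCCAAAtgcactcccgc
The Mcm3 window lies at chr1:20820265-20820294 on the minus strand, and the Mcm5 window at chr8:75109347-75109376 on the plus strand. The Mcm6 windows lie at chr1:128359795-128359824 and chr1:128359734-128359763 on the minus strand. The Mcm7 windows lie at chr5:138172030-138172059 and chr5:138171849-138171878 on the minus strand. Of the E2F genes, the E2f2 window is chr4:136172294-136172323 on the plus strand and the E2f3 window chr13:29986064-29986093 on the minus strand. The Hells window is chr19:38930917-38930946 on the plus strand and the Pola1 window chrX:93632275-93632304 on the minus strand. The Mcm3 and E2f2 windows and the downstream Mcm7 window lie after the start that RefSeq annotates, the others before it. GENCODE M21, used for the gene spans below, places the start of E2f2 downstream of its window and that of Hells just upstream of its window. It places the start of Mcm7, at chr5:138172422, upstream of both Mcm7 windows, so that both lie within the gene there. The side of the start on which a window lies thus differs between the annotations for E2f2, Hells and the upstream Mcm7 window. The annotated starts of Mcm5 and Mcm6 differ as well, but their windows lie before the start in both annotations. In Mcm5 and in the upstream Mcm6 window 2 matches on opposite strands overlap.

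As a set, these genes differed little between the groups. Hells, E2f2, Pola1, Mcm4 and Prim1 were at least 1.5-fold higher in shTaz (a difference of 0.585 or more), and no replication gene was 1.5-fold lower. That is 5 of 39 genes, or 12.8%, against 17.3% of all 11650 genes past the filter for the higher direction, and 0 of 39 against 9.96% for the lower one. The share of higher genes was thus near or under that of the whole table. At 2-fold only Hells was higher, 1 of 39 or 2.56%, against 3.96% of all genes, and none was 2-fold lower, against 3.25%. The median difference was 0.25 over the 39 genes and 0.12 over all genes, and 23 of the 39 lay above the median of all genes. The remaining 34 genes lay between the 1.5-fold limits. The sum of the 40 genes was 750.2 FPKM in shTaz and 666.2 FPKM in shLuc, which was 0.175% of the shTaz column and 0.133% of the shLuc column.

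**Figure D1:**
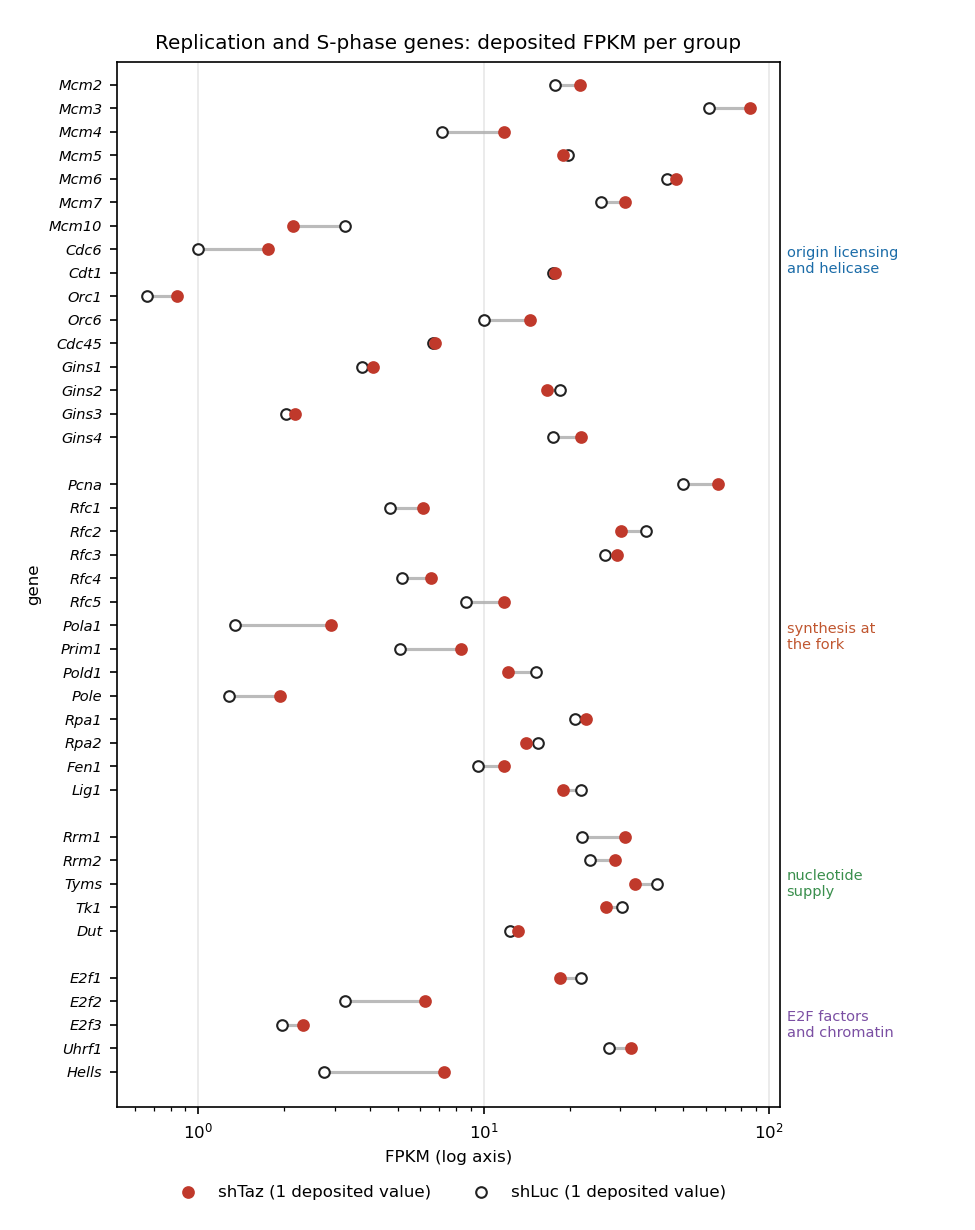
Deposited FPKM (log axis) of the 40 replication and S-phase genes, grouped by role, with shTaz as filled red points and shLuc as open points, each a single deposited value. Mcm3 and Pcna are the most abundant in both columns, Orc1 is the only gene under 1 FPKM in both, and most pairs of points lie close together beside the range of levels.

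The spread of levels between genes was far wider than the difference between the groups. Across the 40 genes the levels in the 2 columns had a Spearman correlation of 0.98, which is across genes and not across replicates. The median level of the set was 14.3 FPKM in shTaz and 15.4 FPKM in shLuc, while that of all genes past the filter was 7.91 FPKM in shTaz and 6.99 FPKM in shLuc. In shTaz 27 of the 39 genes, and in shLuc 26, lay above that level of all genes.

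The genes that license origins form the first group. Orc1, the large subunit of the origin recognition complex, was the least abundant of the 40 genes, at 0.841 FPKM in shTaz and 0.661 FPKM in shLuc, and failed the filter. Orc6, the smallest subunit, was at 14.5 FPKM in shTaz and 10.01 FPKM in shLuc, a difference of 0.50. Cdc6, the loader that joins the complex in G1, was at 1.75 FPKM in shTaz and 0.994 FPKM in shLuc. Cdc6 was the only gene of the set that reached the filter with 1 column under 1 FPKM. Its partner Cdt1 was nearly equal, at 17.8 FPKM in shTaz and 17.5 FPKM in shLuc.

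The MCM ring contains 1 copy of each of Mcm2 through Mcm7, yet their transcripts were not equally abundant per length. Mcm3 was the most abundant gene of the whole set, at 85.7 FPKM in shTaz and 61.6 FPKM in shLuc. Mcm4 was the least abundant subunit of the ring, at 11.8 FPKM in shTaz and 7.17 FPKM in shLuc. The highest subunit thus exceeded the lowest 7.26-fold in shTaz and 8.59-fold in shLuc. Mcm6 was at 47.4 FPKM in shTaz and 43.9 FPKM in shLuc, and Mcm7 at 31.3 FPKM in shTaz and 25.7 FPKM in shLuc. Mcm2 was at 21.7 FPKM in shTaz and 17.8 FPKM in shLuc, while Mcm5 was at 19.0 FPKM in shTaz and 19.8 FPKM in shLuc. The order of levels was Mcm3, Mcm6, Mcm7, Mcm2, Mcm5, Mcm4 in shTaz, and in shLuc it differed only in that Mcm5 stood above Mcm2. Summed over the ring, the level was 217 FPKM in shTaz and 176 FPKM in shLuc. Mcm4 had the largest difference of the ring, 0.65, followed by Mcm3 with 0.47, and Mcm5 was the only subunit with a negative one, -0.05.

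Among the factors that turn the ring into a moving helicase, Cdc45 was nearly equal. It was at 6.76 FPKM in shTaz and 6.64 FPKM in shLuc. In the GINS complex, Gins4 was at 21.99 FPKM in shTaz and 17.5 FPKM in shLuc, and Gins2 at 16.6 FPKM in shTaz and 18.5 FPKM in shLuc. These 2 subunits exchanged the first place between the columns. Gins1 was at 4.11 FPKM in shTaz and 3.75 FPKM in shLuc, and Gins3 at 2.18 FPKM in shTaz and 2.02 FPKM in shLuc. The most abundant GINS transcript exceeded the least abundant 10.1-fold in shTaz and 9.12-fold in shLuc. Mcm10, which binds the helicase as replication forks start, had the lowest difference of the 39 genes, -0.44, with 2.14 FPKM in shTaz and 3.26 FPKM in shLuc.

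Of the genes of the set for synthesis at the fork, Pola1 and Prim1, of the primase and polymerase alpha complex, differed most as deposited. Pola1, its catalytic polymerase subunit, was at 2.92 FPKM in shTaz and 1.34 FPKM in shLuc, a difference of 0.74. Prim1, the catalytic primase subunit, was at 8.34 FPKM in shTaz and 5.08 FPKM in shLuc, a difference of 0.62. Pola2 and Prim2, of the same complex, belong to the further replication factors and did not share this. Their differences were 0.25 for Pola2 and 0.29 for Prim2. The catalytic subunits of the other replicative polymerases went in opposite directions. Pole, for polymerase epsilon of the leading strand, was at 1.94 FPKM in shTaz and 1.28 FPKM in shLuc. Pold1, for polymerase delta of the lagging strand, was at 12.2 FPKM in shTaz and 15.3 FPKM in shLuc. The ratio of Pold1 to Pole was 6.28 in shTaz and 11.9 in shLuc.

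Pcna, the sliding clamp, was at 66.0 FPKM in shTaz and 50.1 FPKM in shLuc, the second most abundant gene of the set in both columns. Replication factor C loads the clamp and has a large subunit, Rfc1, with 4 small ones. Rfc1 was the lowest of them, at 6.14 FPKM in shTaz and 4.68 FPKM in shLuc, and Rfc2 the highest, at 30.4 FPKM in shTaz and 36.9 FPKM in shLuc. Between them, Rfc3 was at 29.4 FPKM in shTaz and 26.7 FPKM in shLuc, and Rfc5 at 11.8 FPKM in shTaz and 8.66 FPKM in shLuc. Rfc4 was at 6.52 FPKM in shTaz and 5.17 FPKM in shLuc. The order of these 5 subunits was the same in both columns, and Rfc2 alone was lower in shTaz, with a difference of -0.27. Their sum was nearly equal, at 84.2 FPKM in shTaz and 82.1 FPKM in shLuc.

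Single-stranded DNA at the fork is coated by replication protein A. Rpa1, its large subunit, was at 22.9 FPKM in shTaz and 20.9 FPKM in shLuc. Rpa2 was at 14.03 FPKM in shTaz and 15.5 FPKM in shLuc. Rpa3, the small subunit, is not among the 40 and is given with the further replication factors. Fen1, the flap nuclease that trims Okazaki fragments, was at 11.8 FPKM in shTaz and 9.53 FPKM in shLuc. Lig1, the ligase that joins the fragments, was at 19.0 FPKM in shTaz and 21.97 FPKM in shLuc. All differences of Rpa1, Rpa2, Fen1 and Lig1 lay between -0.20 and 0.28.

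Nucleotide supply showed no common direction. Rrm1 and Rrm2 encode the large and small subunit of ribonucleotide reductase, which makes deoxynucleotides. Rrm1 was at 31.4 FPKM in shTaz and 22.2 FPKM in shLuc, a difference of 0.48. Rrm2 was at 28.8 FPKM in shTaz and 23.5 FPKM in shLuc, a difference of 0.28. The thymidylate genes were lower instead. Tyms, thymidylate synthase, was at 34.0 FPKM in shTaz and 40.5 FPKM in shLuc, and Tk1, the thymidine salvage kinase of S phase, at 26.8 FPKM in shTaz and 30.5 FPKM in shLuc. Dut, the enzyme that removes dUTP, was at 13.2 FPKM in shTaz and 12.4 FPKM in shLuc. Over these 5 genes the median difference was 0.09, below the median of all genes.

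The activating E2F genes differed among themselves. E2f1 was the most abundant, at 18.5 FPKM in shTaz and 21.97 FPKM in shLuc. E2f2 was at 6.22 FPKM in shTaz and 3.27 FPKM in shLuc, a difference of 0.76, with 89.8% of all genes below it. E2f3 was at 2.33 FPKM in shTaz and 1.96 FPKM in shLuc. The ratio of E2f1 to E2f2 was 2.97 in shTaz and 6.72 in shLuc, while the sum of the 3 genes was 27.0 FPKM in shTaz and 27.2 FPKM in shLuc.

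Hells and Uhrf1 act on chromatin behind the fork. Hells, a chromatin remodeler needed for DNA methylation (also called LSH), had the largest difference of the set, 1.14, with 97.7% of all genes below it. It was at 7.26 FPKM in shTaz and 2.75 FPKM in shLuc. Uhrf1, which brings the maintenance methyltransferase to newly copied DNA, was at 32.8 FPKM in shTaz and 27.5 FPKM in shLuc. The ratio of Uhrf1 to Hells was 4.52 in shTaz and 10.001 in shLuc.

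In mm10, per the GENCODE M21 annotation, Hells (Entrez 15201) spans chr19:38930915-38971051 and E2f2 (Entrez 242705) chr4:136172394-136196057, both on the plus strand. Pola1 (Entrez 18968) spans chrX:93304767-93632155 and Mcm4 (Entrez 17217) chr16:15623897-15637400, both on the minus strand. Prim1 (Entrez 19075) spans chr10:128015168-128030037 on the plus strand. Whether reads were counted by strand is not given in the sources used here, which matters for genes that overlap another gene on the opposite strand. Exons of Gse1 cover 67.3% of the annotated exon bases of Gins2, and those of the antisense gene Gm10143 cover 78.8% of Fen1. Gins2 and Fen1 are uncertain for that reason.

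**Figure D2:**
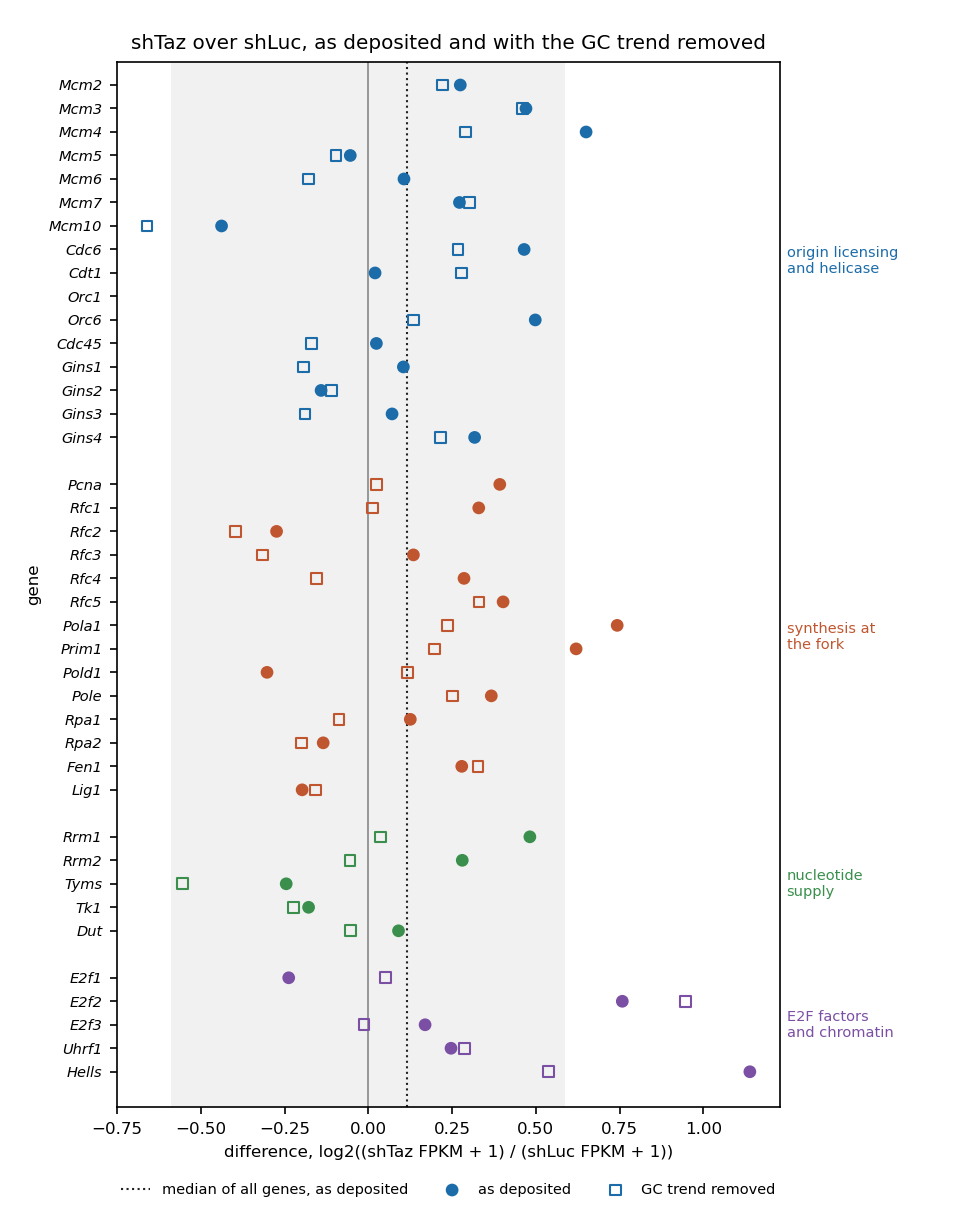
Difference between shTaz and shLuc on the log2(FPKM + 1) scale for the 39 genes past the filter, as deposited (filled circles) and after the trend with GC content over all genes was removed (open squares); the grey band spans the 1.5-fold limits and the dotted line is the median of all genes, 0.12. Of the filled circles 5 lie right of the band, whereas of the open squares E2f2 lies right of it and Mcm10 left of it.

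The differences followed base composition in these genes as in the whole table. GC content was taken from the longest GENCODE transcript and ranged from 37.7% for Hells to 61.0% for Pold1, with a median of 49.5% for the 39 genes and 50.3% for all genes. The Spearman correlation of the difference with GC content was -0.45 over the 39 genes and -0.56 over the 11109 genes with a GC value. These correlations are across genes of the same 2 columns, which share their libraries. All 9 replication genes under 46% GC lay above the median of all genes, with a median difference of 0.50, close to the 0.47 of all 3097 genes in that range. Hells, Pola1, Prim1 and Mcm4 belong to this group. Of the 9 genes with at least 53% GC, 4 lay above the median of all genes. The median was 0.02 for these 9 genes and -0.20 for all 3924 genes in that range. Between these limits, 10 of 21 replication genes lay above the median of all genes. Their median was 0.11, under the 0.17 of all 4088 genes in that range. These GC limits were chosen after the values were seen.

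With the GC trend over all genes removed by lowess, the median of the 39 genes was 0.02, and 21 lay above 0 and 18 below. E2f2, at 56.6% GC, then had a difference of 0.95 and was the only replication gene 1.5-fold higher, 1 of 39 against 7.18% of all genes. Mcm10, at 48.7% GC, had -0.66 and was the only one 1.5-fold lower, 1 of 39 against 10.3% of all genes. Hells came to 0.54, just inside the limit, Mcm4 to 0.29, Pola1 to 0.24 and Prim1 to 0.20. Among the genes for synthesis at the fork, Rfc5 at 0.33, Fen1 at 0.33 and Pole at 0.25 then lay above Pola1 and Prim1. Tyms was at -0.55 and Rfc2 at -0.40. The direction of Pold1 turned from negative to positive, at 0.12, and that of E2f1 likewise, at 0.05. Within the set the differences spread less than in the whole table, with a standard deviation across genes of 0.31 against 0.54. The set was also more abundant than the whole table, and spreads at a matched level were not compared.

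**Figure D3:**
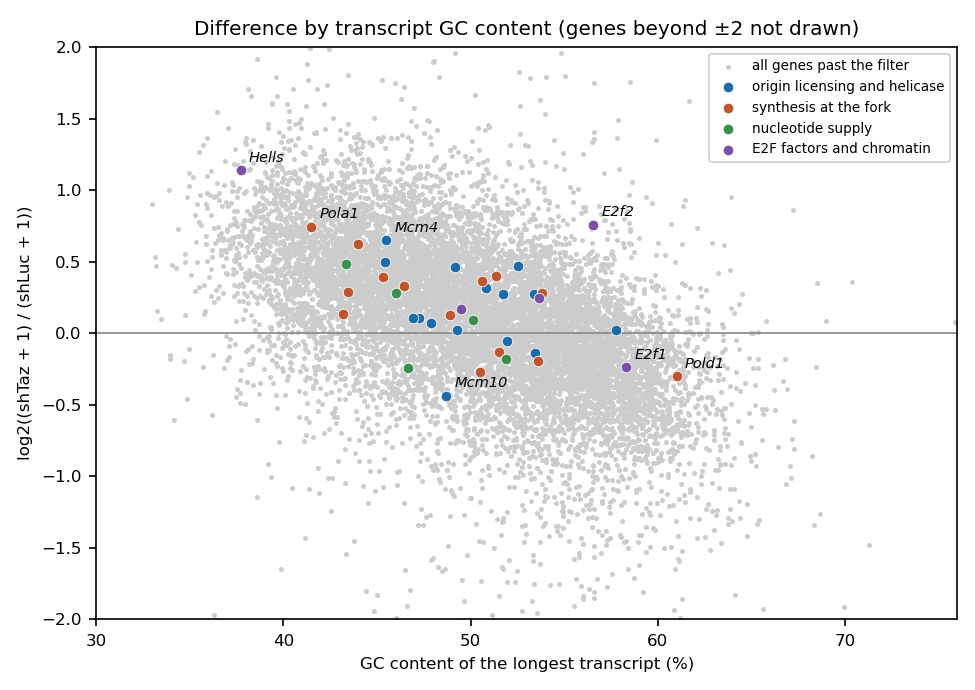
Difference between shTaz and shLuc against the GC content of the longest transcript, for all genes past the filter (grey) and for the 39 replication genes (coloured by role). Hells at 37.7% GC and Pola1 at 41.5% lie within the grey cloud of their GC range, E2f2 at 56.6% lies in the upper part of the cloud, and Mcm10 at 48.7% has the lowest value of the set.

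Scaling also moved these values. Median-ratio scaling shifted the median of all genes from 0.12 to -0.001 and that of the replication genes to 0.12, which left 3 genes 1.5-fold higher (E2f2, Hells and Pola1) and none lower, against 12.6% and 14% of all genes. After quantile normalization Hells and Mcm3 were 1.5-fold higher and Mcm10 was 1.5-fold lower, against 12.1% and 12% of all genes. With the length trend removed, Hells and Orc6 were higher and Mcm10 lower, against 11.5% and 11.8%, and with both trends removed E2f2 was higher and Mcm10 and Tyms lower, against 7.33% and 8.96%. Among genes with a mean of 5 FPKM or more, Hells, Mcm4 and Prim1 were higher and none was lower, 3 and 0 of 31 against 13.7% and 10.5%. With a pseudocount of 0.1 FPKM, Cdc6 joined the 5 higher genes and none was lower, 6 and 0 of 39 against 23.7% and 12%.

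The promoter matches did not separate the genes by their difference. The 15 genes past the filter with a match had a median difference of 0.17, ranging from -0.30 to 1.14, and the 18 with a promoter but no match had 0.28, ranging from -0.44 to 0.62. Over all genes past the filter, the median was 0.13 for the 396 genes with a match and 0.11 for those without. In the windows shown above, E2f2, Hells and Pola1 stood with Mcm5 and Mcm6, whose levels were nearly equal between the groups.

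Other genes of the same processes were taken from lists outside the 40, to set the replication genes beside them. For each count, the share of all genes is 17.3% higher and 9.96% lower as deposited, and 7.18% and 10.3% with the GC trend removed. The counts include genes with 1 column under 1 FPKM, among them Lin9, Rb1, Hus1, Rrm2b, Ect2 and Cdkn1c. Such genes reached the filter only through the column where they were higher, so their place in the counts is less certain. Of 36 further replication factors, 32 passed the filter, and 7 were 1.5-fold higher and 3 lower, against these 17.3% and 9.96%, with a median of 0.30. Orc2, an origin recognition subunit, was at 4.44 FPKM in shTaz and 1.60 FPKM in shLuc, and Pole2, the second subunit of polymerase epsilon, at 3.79 FPKM in shTaz and 1.61 FPKM in shLuc. At the lower end, Pold2, the second subunit of polymerase delta, was at 14.2 FPKM in shTaz and 27.0 FPKM in shLuc, and Rnaseh2c, a subunit of the nuclease that removes RNA from DNA, at 41.2 FPKM in shTaz and 69.2 FPKM in shLuc. The third lower gene was Rpa3, named after its value was seen, at 13.2 FPKM in shTaz and 20.6 FPKM in shLuc, with a difference of -0.61, or -1.28 with the GC trend removed. With that trend removed, 2 of the 31 genes with a GC value were higher and 1 lower, and the median was 0.04.

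Nucleotide enzymes outside the 40 numbered 16, of which 4 were 1.5-fold higher and 1 lower, against 17.3% and 9.96% of all genes, with a median of 0.26. After removal of the GC trend 1 was higher and 1 lower, with a median of 0.14, and over genes with a mean of 5 FPKM or more the median was 0.009. Dck, the deoxycytidine kinase of salvage, was at 5.99 FPKM in shTaz and 2.06 FPKM in shLuc, and Rrm2b, the reductase subunit induced by p53, at 2.04 FPKM in shTaz and 0.793 FPKM in shLuc. The Rrm2b difference was 0.76, or 0.20 with the GC trend removed. Nme1, a nucleoside diphosphate kinase, was at 44.4 FPKM in shTaz and 67.4 FPKM in shLuc, and Impdh2, of guanine nucleotide synthesis, at 41.5 FPKM in shTaz and 54.8 FPKM in shLuc. Of 12 replication checkpoint genes past the filter 2 were 1.5-fold higher and 2 lower, against 17.3% and 9.96% of all genes, with a median of 0.16. With the GC trend removed 2 of 11 were higher and 3 lower, and the median turned to -0.08. Wee1, the kinase that holds back CDK1, was at 3.43 FPKM in shTaz and 1.46 FPKM in shLuc, and the clamp subunit gene Hus1 at 1.67 FPKM in shTaz and 0.579 FPKM in shLuc. The Hus1 difference came to 0.35 without the GC trend, inside the 1.5-fold limit. Rad1, another subunit of that clamp, was at 5.95 FPKM in shTaz and 11.2 FPKM in shLuc, and Cdc25a, the phosphatase that opposes WEE1, at 3.02 FPKM in shTaz and 5.11 FPKM in shLuc.

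Genes for histone supply and nucleosome assembly had the highest median of these lists, 0.65 over 10 genes past the filter. Of them 6 were 1.5-fold higher and none lower, against 17.3% and 9.96% of all genes. Asf1a, a histone chaperone, was at 4.26 FPKM in shTaz and 1.52 FPKM in shLuc, and Rbbp7, a histone-binding subunit of several chromatin complexes, at 95.5 FPKM in shTaz and 51.0 FPKM in shLuc. The chromatin assembly factor genes did not share this, with Chaf1a at 18.6 FPKM in shTaz and 23.6 FPKM in shLuc and Chaf1b at 9.73 FPKM in shTaz and 9.72 FPKM in shLuc. The list was AT-rich, with a median GC content of 44.5%, and with the GC trend removed its median was 0.17 and 1 of 10 genes was 1.5-fold higher, against 7.18% of all genes.

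Regulators of RB and E2F had a median of 0.32 over 15 genes, with 4 of them 1.5-fold higher and 1 lower, against 17.3% and 9.96% of all genes. Lin9, of the complex that activates mitotic genes, was at 1.99 FPKM in shTaz and 0.396 FPKM in shLuc, and Rbl2, which encodes the RB relative p130, at 6.64 FPKM in shTaz and 3.44 FPKM in shLuc. Lin37 was at 7.0 FPKM in shTaz and 11.99 FPKM in shLuc, and Mybl2 at 5.58 FPKM in shTaz and 7.30 FPKM in shLuc. Rb1 itself was at 1.77 FPKM in shTaz and 0.728 FPKM in shLuc, and Trp53 at 13.8 FPKM in shTaz and 17.0 FPKM in shLuc. The Rb1 difference was 0.68, or 0.17 with the GC trend removed. Which cells of the tumors the Rb1 and Trp53 values came from was not tested. With the GC trend removed the list had a median of -0.03, with 1 gene higher and 0 lower, and over genes with a mean of 5 FPKM or more the median was -0.22.

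Of 16 cyclin and CDK genes past the filter, 3 were 1.5-fold higher and none lower, against 17.3% and 9.96% of all genes, with a median of 0.36. Without the GC trend 2 were higher and 1, Cdk6, was lower, with a median of 0.15. Ccne1, the cyclin E1 gene that acts at the start of S phase, was at 5.03 FPKM in shTaz and 1.70 FPKM in shLuc, and had a difference of 1.16 both as deposited and with the GC trend removed. Ccnd2, a D-type cyclin gene, was at 16.3 FPKM in shTaz and 7.04 FPKM in shLuc. Cdk6 was at 1.11 FPKM in shTaz and 2.12 FPKM in shLuc, and the CDK subunit gene Cks1b at 52.6 FPKM in shTaz and 69.2 FPKM in shLuc. Among 7 CDK inhibitor genes none was 1.5-fold higher and 2 were lower, against 17.3% and 9.96% of all genes. These were Cdkn1c at 0.242 FPKM in shTaz and 1.90 FPKM in shLuc and Cdkn2a at 256 FPKM in shTaz and 400.1 FPKM in shLuc. With the GC trend removed Cdkn1c alone was lower, Cdkn2a having a difference of -0.26, and with both trends removed 1 gene, Cdkn2d, was higher and 1 lower. The largest positive differences there were those of Cdkn1b, at 41.4 FPKM in shTaz and 31.2 FPKM in shLuc, and Cdkn2d, at 16.6 FPKM in shTaz and 12.8 FPKM in shLuc. The direction of Cdkn1b turned, at -0.06, with the GC trend removed.

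Mitotic genes ranged more widely than the replication genes. Of 32 genes 10 were 1.5-fold higher and 2 lower, against 17.3% and 9.96% of all genes, with a median of 0.36. Nusap1, a spindle microtubule protein gene, was at 14.9 FPKM in shTaz and 3.88 FPKM in shLuc, and Ect2, which starts the cleavage furrow, at 5.07 FPKM in shTaz and 0.997 FPKM in shLuc. Ube2c, of the anaphase ubiquitin machinery, was at 27.1 FPKM in shTaz and 44.7 FPKM in shLuc, and the spindle kinase gene Aurka at 11.8 FPKM in shTaz and 19.7 FPKM in shLuc. With the GC trend removed, 4 of the 32 were higher and 2 lower, against 7.18% and 10.3%, and the median was 0.05, next to 0.02 for the replication genes.

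**Figure D4:**
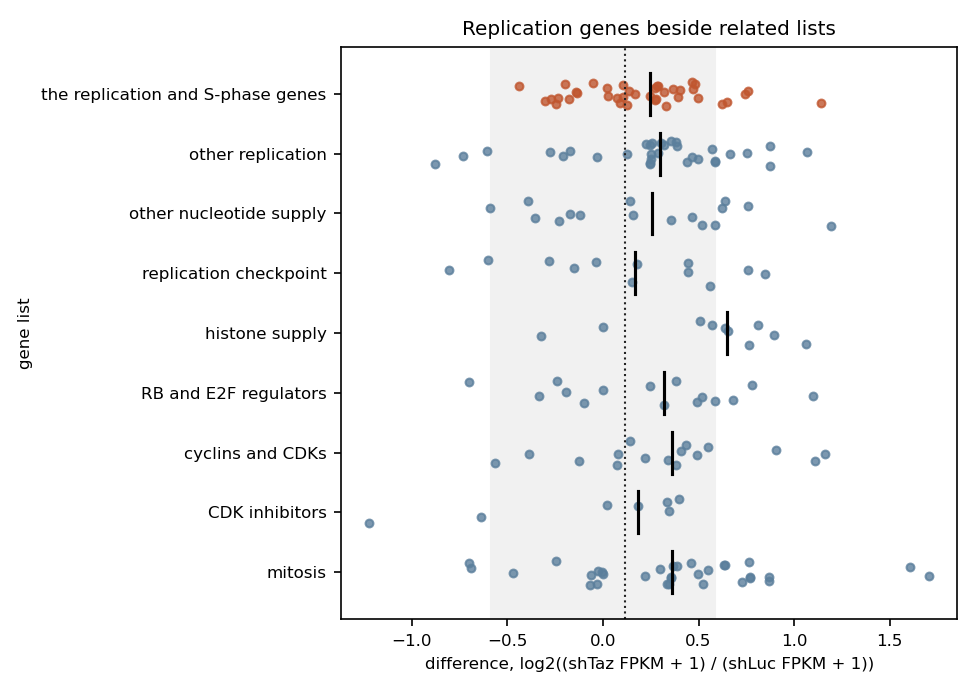
Difference between shTaz and shLuc on the log2(FPKM + 1) scale for each gene past the filter, in the 39 replication genes (top) and in 8 related lists; black bars are list medians, the grey band spans the 1.5-fold limits and the dotted line is the median of all genes. The replication genes lie between -0.44 and 1.14, and the mitotic genes between -0.70 and 1.71.

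Markers of the cell types such tumors can hold also differed between the columns, and their part in the values above was not tested. The summed level of the 9 fibroblast markers was 1411 FPKM in shTaz and 2202 FPKM in shLuc. Of them 5 were at least 1.5-fold lower, against 9.96% of all genes, and 5 with the GC trend removed, against 10.3%. Col1a1, at 841 FPKM in shTaz and 1375 FPKM in shLuc, was the largest part of that sum. Pdgfra alone was higher in shTaz, at 13.5 FPKM against 8.75 FPKM in shLuc. Col3a1 was nearly equal, at 371 FPKM in shTaz and 372 FPKM in shLuc. For the 9 macrophage markers the sum was 3668 FPKM in shTaz and 4204 FPKM in shLuc, with 2 higher, against 17.3% of all genes. C1qa, at 1470 FPKM in shTaz and 1868 FPKM in shLuc, was the largest part of this sum. With the GC trend removed no macrophage marker was past 1.5-fold, and their median difference turned from -0.02 to 0.07. The 7 endothelial markers summed to 81.2 FPKM in shTaz and 120.1 FPKM in shLuc. Of the 6 past the filter 2, Plvap and Cldn5, were 1.5-fold lower, against 9.96% of all genes, and none with the GC trend removed. Neutrophil markers summed to 55.3 FPKM in shTaz and 4.91 FPKM in shLuc. Most of the shTaz sum came from S100a8, at 18.6 FPKM, and S100a9, at 29.2 FPKM. In shLuc S100a8 was listed at 0 and S100a9 at 0.810 FPKM, so both reached the filter only through shTaz. Csf3r was at 7.10 FPKM in shTaz and 3.93 FPKM in shLuc, Mpo failed the filter, and Ly6g and Elane had no row. Skeletal muscle markers summed to 31.1 FPKM in shTaz and 2.79 FPKM in shLuc, with Acta1 and Myh4 listed at 0 in shLuc. The erythroid markers summed to 363 FPKM in shTaz and 495 FPKM in shLuc. Of those past the filter Alas2 alone was higher in shTaz, at 3.79 FPKM against 2.07 FPKM in shLuc. The epithelial markers summed to 113 FPKM in shTaz and 117 FPKM in shLuc, and the keratinocyte markers to 8.42 FPKM in shTaz and 6.98 FPKM in shLuc. No lymphocyte marker passed the filter, and Cd3e and Cd3d were listed at 0 in shTaz. Of the neuroendocrine markers that define classical small cell lung cancer, Neurod1, Chga and Calca had no row, Insm1 was listed at 0 in shTaz and at 0.169 FPKM in shLuc, and Syp was at 0.447 FPKM in shTaz and 0.557 FPKM in shLuc. Ncam1 was expressed in both groups, at 43.8 FPKM in shTaz and 39.8 FPKM in shLuc, and Uchl1 was at 1.51 FPKM in shTaz and 10.1 FPKM in shLuc. Of the neuroendocrine markers named here, Ncam1 and Uchl1 alone were above 1 FPKM in both groups.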

How the data were processed

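Gene expression was measured by RNA sequencing of subcutaneous tumors, 2 samples per group. Per the labels' protocols, RNA was extracted with Trizol and libraries followed standard Illumina protocols. Trim Galore, TopHat and mm10 are named, per the submitters' processing notes; versions, the FPKM program, its annotation and the strand setting are not given in the sources used here. The authors deposited FPKM values in 1 column per group, matched to the groups by the description that both samples of a group carry. Whether and how the samples were combined is not stated, depth is unknown, and no gene is at 0 in both columns.

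Differences were computed with Python 3.11.15, numpy 2.4.6, pandas 2.3.3, scipy 1.17.1 and statsmodels 0.14.6, with a pseudocount of 1 FPKM and a minimum mean of 1 FPKM. Genes past 1.5-fold were counted beside the same count over all genes. GC and length trends (95.4% of genes had both) were removed by lowess with a span of 0.3. Removal of a GC trend was first checked on simulated data with a linear trend and a pseudocount of 0.1 FPKM. The simulated noise was smaller than the spread of the real differences. Removal of the length trend, alone or after the GC trend, was not checked in this way. Alternatives were a minimum mean of 5 FPKM, no minimum, a pseudocount of 0.1, quantile normalization, median-ratio scaling, removal of the GC trend, the length trend or both, genes above 0 in both columns, and a 2-fold limit. Of each related list, the 2 genes with the largest and the 2 with the smallest difference were named. The members and lists were chosen with earlier results of these data known. Listed genes were matched by symbol or through RefSeq; Adgre1, Rad9a, Ctc1 and Hbb-bs had an older symbol in the table.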

Additional observations from a re-analysis of the deposited data

How the results depend on the processing

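No paired analysis was possible because the table holds 1 column per group and carries no replicate number; for the same reason no replicate could be left out. The median difference of the replication genes was 0.25 as reported, 0.25 with a pseudocount of 0.1 FPKM, 0.21 with no filter, 0.12 with median-ratio scaling and 0.15 with quantile normalization. Removal of the length trend gave 0.083, of the GC trend 0.024 and of both trends 0.023. It was positive in each of these, and again 0.25 with a minimum mean of 5 FPKM and over genes above 0 in both columns. The median of all genes moved too. It was 0.12 as reported, 0.13 with a pseudocount of 0.1 FPKM, 0.086 with no filter and 0.031 with a minimum mean of 5 FPKM. It was -0.001 with median-ratio scaling, 0.018 with quantile normalization, -0.003 without the length trend, and 0.003 without the GC trend or without both. The number of genes 1.5-fold higher was 5 as reported, 6 with a pseudocount of 0.1 FPKM, 3 with a minimum mean of 5 FPKM, 3 with median-ratio scaling, 2 with quantile normalization, 2 without the length trend, 1 without the GC trend, 1 without both, and 1 at 2-fold. The number 1.5-fold lower was 0 as reported and 1 with quantile normalization, 1 without the GC trend, 1 without the length trend and 2 without both (Mcm10 and Tyms). Of the 39 genes, 16 had a positive and 8 a negative difference as reported and in each of the 9 alternatives that kept them, 15 changed sign in at least 1, and none was past 1.5-fold in all. E2f2 ranged from 0.51 to 0.95, Hells from 0.45 to 1.37 and Mcm10 from -0.74 to -0.44. Among the other genes named, Cdkn2a turned to 0.012 with both trends removed, Cdkn1b to -0.055 without the GC trend and to -0.12 without both, and Chaf1b, at 0.002 as reported, to between -0.19 and -0.094 in 5 alternatives. The causes were not tested. Without depth or replicates, no size of error can be given for any of these values.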
